A study of Homo sapiens with 4 samples.

Results

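Expression of 10 regulators of Wnt signalling (DACT1, DACT3, DKK1, DKK3, AXIN1, AXIN2, CTNNB1, TCF7L2, LRP5 and LRP6) was examined in SW1353 cells treated with the histone deacetylase (HDAC) inhibitor trichostatin A (TSA) and with IL-1α. The genes were taken by symbol from the array annotation and were 10 of 18661 genes named there. The measured value they were chosen by was the difference of DACT3 with TSA on these same arrays, so the values in the comparisons with TSA describe the choice and are no test of it. SW1353 is a human chondrosarcoma cell line used in place of chondrocytes. The 4 conditions were vehicle control (Con, DMSO), IL-1α for 6 h after DMSO (IL1), TSA at 250 ng/ml without IL-1α (Con_TSA), and the same dose of TSA from 1 h before IL-1α for 6 h (IL1_TSA). Each condition was 1 Illumina array, so no difference has a replicate check and no p-value between conditions is given.

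Wnt proteins bind Frizzled receptors together with the co-receptors LRP5 and LRP6. Without Wnt, a cytoplasmic complex built on the scaffolds AXIN1 and AXIN2 marks β-catenin, the product of CTNNB1, for degradation. With Wnt, β-catenin accumulates, enters the nucleus and acts with TCF/LEF factors such as TCF7L2. DKK1 is secreted and blocks LRP5 and LRP6, DKK3 is a divergent member of the same family, and DACT proteins bind Dishevelled, which relays the signal from Frizzled. AXIN2 is both an inhibitor of the pathway and one of its best known targets. In cartilage, Wnt signalling takes part in chondrocyte differentiation, and in colorectal cancer cells DACT3 is known as a gene silenced through histone modification.

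Each array detected from 26.8% to 28.8% of its probes (detection p-value under 0.01, from the rank of a probe among negative controls), and 10128 genes had a detected probe with 1 gene name. Median raw intensity ran from 86.9 on Con_TSA to 113 on IL1_TSA. As a check of the IL-1 label, the inflammatory cytokine IL6 was at least 205-fold higher in IL1 than in Con and the neutrophil chemokine CXCL8 249-fold higher. Of 12 chondrocyte markers 3 (SOX9, COL11A1 and HAPLN1) were detected, on all 4 arrays, while COL2A1 and ACAN, which encode the main cartilage collagen and proteoglycan, were not detected on any. None of 4 epithelial markers was detected, nor were the leukocyte gene PTPRC and the endothelial genes PECAM1 and CDH5, whereas CD68 and VWF were detected on all 4 arrays. Arrays of whole cultures cannot tell fewer cells expressing a gene from less RNA per cell.

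Levels are normalised log2 intensities, and a difference is the first condition minus the second. A gene is called higher or lower where it differed by at least 1.5-fold, 0.58 on the log2 scale, and was detected on the brighter array. The word does not refer to a test. Beside a difference stands the noise SD, the standard deviation expected from the disagreement of 2 probes of 1 gene at that level, which leaves out variation between cultures. Where a gene was not detected on the dimmer array the fold is a lower bound.

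Promoter windows from RefSeq (GRCh38.p14), 250 bases before to 50 after a transcript start, were found for 7 of the 10 genes. DKK3, AXIN2 and LRP6 had no entry. The upstream 250 bases are shown for DACT3, DACT1 and AXIN1, the genes called in both comparisons with TSA in 1 direction, in the window of each gene with the most CpG. They run 5′ to 3′ on the strand of the gene, with GC boxes (GGGCGG on either strand, a letter pattern that Sp family factors can bind) in capitals.
DACT3, chr19:46661183-46661432, minus strand: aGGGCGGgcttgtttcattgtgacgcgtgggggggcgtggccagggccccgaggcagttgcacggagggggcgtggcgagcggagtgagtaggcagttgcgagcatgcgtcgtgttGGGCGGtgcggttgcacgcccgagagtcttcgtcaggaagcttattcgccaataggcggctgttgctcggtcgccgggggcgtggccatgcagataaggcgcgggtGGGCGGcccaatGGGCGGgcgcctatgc
DACT1, chr14:58637712-58637961, plus strand: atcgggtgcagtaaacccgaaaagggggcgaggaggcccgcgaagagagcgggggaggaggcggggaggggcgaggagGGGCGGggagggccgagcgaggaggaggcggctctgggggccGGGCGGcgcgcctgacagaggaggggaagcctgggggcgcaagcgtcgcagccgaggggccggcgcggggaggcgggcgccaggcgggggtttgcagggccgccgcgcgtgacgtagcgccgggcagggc
AXIN1, chr16:352724-352973, minus strand: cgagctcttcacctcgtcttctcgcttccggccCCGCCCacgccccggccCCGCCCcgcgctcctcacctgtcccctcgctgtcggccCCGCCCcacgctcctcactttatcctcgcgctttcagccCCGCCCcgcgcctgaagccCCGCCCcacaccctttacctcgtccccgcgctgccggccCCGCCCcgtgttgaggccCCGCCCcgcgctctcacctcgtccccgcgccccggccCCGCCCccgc
The whole window of DACT3 held 33 CpG and that of DACT1 and of AXIN1 44 each, against a median of 14 over 35116 windows of that length. The GC box occurred 6 times in the DACT3 window, of which 4 lie in the bases shown, 2 times in that of DACT1 and 8 times in that of AXIN1, and at least once in 45% of all windows. In these windows, picked for the most CpG, the gene that was higher with TSA and the genes that were lower were all CpG-rich with GC boxes. Another DACT3 window held 8 CpG and 1 GC box. The other DACT1 windows held 27 CpG with 2 GC boxes and 3 CpG with 0. Which start site the cells used was not measured. The core of TCF/LEF sites (CTTTGAT or CTTTGAA, either strand, which cannot coincide) was present in 6.86% of all windows. It occurred 1 time in another DACT1 window, 214 bases before the start, and 1 time in the DKK1 window, and in none of the other windows of the 7 genes. The AP-1 pattern TGANTCA, found in 7.71% of all windows, was in none of them. A match of letters is a description and not evidence of binding.

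The array carried 24 probes for the 10 genes. Of these, 11 were detected on at least 1 array, 10 of them on all 4, and 13 on none. This left 8 genes with a level. DKK1 and LRP6 had none, so nothing can be said of how they differed.

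DACT3, which encodes a Dishevelled-binding antagonist of Wnt signalling, was higher with TSA whether or not IL-1α was present. Its single probe had raw intensities of 361 in Con, 232 in IL1, 1387 in Con_TSA and 2426 in IL1_TSA. After normalisation the levels were 8.19, 7.45, 10.76 and 10.83. Both arrays with TSA lay above both arrays without it, and the probe was detected on all 4. How many of all genes separated 2 arrays from 2 was not counted, so here and for DACT1 and AXIN1 below it is a description. With TSA alone DACT3 was 5.93-fold above Con (log2 difference 2.57, noise SD 0.29), the 6th largest such difference of 8686 genes detected on both arrays. With TSA and IL-1α it was 10.4-fold above IL1 (3.38, noise SD 0.31), the 2nd largest of 8649. In IL1 it was 1.67-fold lower than in Con (-0.74, noise SD 0.36). The levels in Con_TSA and IL1_TSA, neighbours in the order, differed by 0.07, within the noise. With the authors' deposited values the differences with TSA were smaller, at 1.61 (3.05-fold) and 1.80 (3.49-fold). They then ranked 13th and 16th among the same genes. On that scale the difference between IL1 and Con was -0.20 and was not called, so the lower level in IL1 depended on the scale.

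DACT1, the paralogue of DACT3 and likewise a Dishevelled-binding protein, differed in the opposite direction. Its brighter detected probe had raw intensities of 1009 in Con, 1155 in IL1, 248 in Con_TSA and 340.2 in IL1_TSA. The other detected probe gave 665, 746, 203 and 358 in the same order. On both probes the arrays with TSA were below those without it. The gene's mean level was 9.58 in Con, 9.81 in IL1, 7.67 in Con_TSA and 7.65 in IL1_TSA. With TSA alone DACT1 was 3.75-fold below Con (-1.91, noise SD 0.29) and with TSA and IL-1α 4.48-fold below IL1 (-2.16, noise SD 0.31). The probes gave -2.04 and -1.77 without IL-1α, and -2.55 and -1.77 with it. The remaining DACT1 probe was not detected on any array, at intensities from 79.4 to 119.5. The authors' deposited values gave -0.89 (1.85-fold) and -0.996 (1.99-fold). The difference with IL-1α in the mean level of DACT1 was small, at 0.24 without TSA and -0.02 with it. With TSA the brighter probe gave -0.27 and the other 0.23. The calls of DACT1 and DACT3 with TSA held in 7 of 7 alternative settings.

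**Figure D1:**
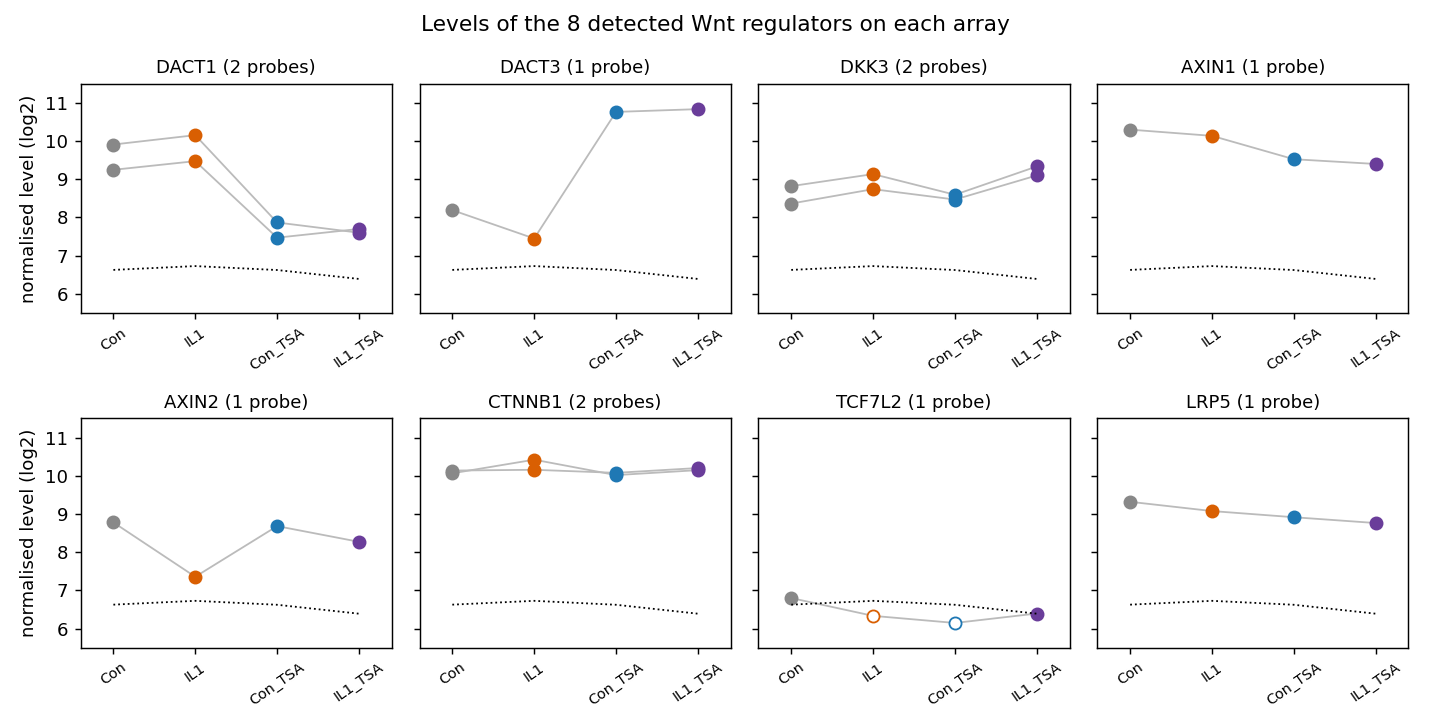
Normalised level (log2, y axis) of each detected probe of the 8 Wnt regulators on the 4 arrays (x axis), 1 point per probe and array, with lines joining the points of a probe. Filled points were detected, open points were not, and the dotted line is the lowest level of a detected probe on each array. DACT3 is at 10.76 and 10.83 on the arrays with TSA against 8.19 and 7.45 without, both DACT1 probes are lower with TSA, and AXIN2 is lowest in IL1.

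The secreted DKK proteins gave a level for DKK3 only. Both probes of DKK1, the blocker of the LRP co-receptors, were at intensities between 54.8 and 108, with detection p-values from 0.232 to 0.997. DKK1 was not above background in any condition. DKK3 was detected on all 4 arrays by 2 of 4 probes, with intensities of 397, 472, 336 and 799 on the first and 519, 604, 361 and 935 on the second for Con, IL1, Con_TSA and IL1_TSA. IL1_TSA was the highest of the 4 arrays on both probes. Mean levels were 8.59, 8.94, 8.53 and 9.22. The differences with TSA were within 1.5-fold, at -0.06 in Con_TSA against Con and 0.28 in IL1_TSA against IL1. DKK3 was 1.61-fold higher in IL1_TSA than in Con_TSA (0.69, noise SD 0.27). The authors' deposited values gave 0.32 for that difference, which is not called, and IL1_TSA was also the array with the highest median intensity, whose part in the result was not tested.

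Of the AXIN scaffolds of the β-catenin destruction complex, AXIN1 was lower with TSA and AXIN2 was lower with IL-1α only where TSA was absent. The detected AXIN1 probe had intensities of 1304 in Con, 1141 in IL1, 626 in Con_TSA and 972 in IL1_TSA, and levels of 10.30, 10.13, 9.52 and 9.40. Both arrays with TSA were below both without. AXIN1 was 1.71-fold lower with TSA alone (-0.77, noise SD 0.29) and 1.66-fold lower with TSA in the presence of IL-1α (-0.74, noise SD 0.31). These calls were close to the threshold, and the authors' deposited values gave -0.48 and -0.45, which are not called. The second AXIN1 probe was not detected, and when it was admitted by a detection p-value under 0.05 the gene's difference without IL-1α was -0.50.

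AXIN2, the scaffold that is itself a Wnt target, was dimmest on the IL1 array. Its single probe had intensities of 509.7 in Con, 222 in IL1, 379 in Con_TSA and 491 in IL1_TSA. The levels were 8.78, 7.36, 8.68 and 8.27, so that IL1 stood below the other 3 arrays. AXIN2 was 2.68-fold lower in IL1 than in Con (-1.42, noise SD 0.28), the 16th largest such difference of 8684 genes detected on both arrays. TSA alone left it at -0.10 against Con. In IL1_TSA it was 1.88-fold above IL1 (0.91, noise SD 0.42), a comparison that shares the IL1 array with the one before. In IL1_TSA against Con_TSA the difference was -0.41. The authors' deposited values kept the directions at a smaller size, -0.48 (1.40-fold) for IL1 against Con and 0.25 for IL1_TSA against IL1, and neither is called. On that scale the difference in IL1 against Con ranked 185th.

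Of the genes of β-catenin, its nuclear partner and its co-receptors, CTNNB1 and LRP5 were within 1.5-fold in all 4 comparisons. CTNNB1 was detected on all 4 arrays by 2 of 7 probes, with levels of 10.10, 10.29, 10.05 and 10.17 in Con, IL1, Con_TSA and IL1_TSA. Its differences were between -0.11 and 0.19 in the 4 comparisons, all within 1 noise SD of 0. The other 5 probes stayed between intensities of 70.9 and 119.7 and were not detected. LRP5, the co-receptor, had levels of 9.32, 9.08, 8.91 and 8.76 on 1 of 2 probes, and its 4 differences ran from -0.40 to -0.15. LRP6 had 1 probe at intensities from 103 to 128, detection p-values from 0.0277 to 0.0725, and no level. TCF7L2 was at the edge of detection, with intensities of 182, 143, 123 and 195 and detection p-values of 0.0079, 0.0145, 0.0184 and 0.0092. Only Con and IL1_TSA passed the threshold. TCF7L2 was at least 1.13-fold lower in Con_TSA than in Con, its difference of -0.65 (noise SD 0.51) was -0.08 with the authors' deposited values, and the call held in 3 of 6 alternative settings. It rests on a signal near background.

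Counted over the 8 genes with a level, 1 was higher (DACT3) and 3 were lower (DACT1, AXIN1 and TCF7L2) in Con_TSA than in Con, where 16.3% of all 10128 genes were higher and 16.4% lower. In IL1_TSA against IL1, 2 were higher (DACT3 and AXIN2) and 2 lower (DACT1 and AXIN1), against 21.2% and 18.2% of all genes. In IL1 against Con, 0 were higher and 2 lower (DACT3 and AXIN2), against 8.54% and 7.93%. In IL1_TSA against Con_TSA, 1 was higher (DKK3) and 0 lower, against 4.2% and 2.75%. The median difference of the 8 genes was -0.25, -0.03, -0.20 and 0.03 in these comparisons, and that of all genes -0.01, 0.02, -0.10 and -0.03. DACT3 and DACT1, of 1 gene family, differed in opposite directions in both comparisons with TSA. With the authors' deposited values only DACT3 (higher) and DACT1 (lower) were called, each in both comparisons with TSA, where 5.02% of all genes were higher and 3.97% lower without IL-1α, and 6.36% higher and 5.79% lower with it. On that scale 0 of the 8 were higher and 0 lower in IL1 against Con, where 3.35% of all genes were higher and 0.849% lower, and likewise 0 and 0 in IL1_TSA against Con_TSA, where 0.879% were higher and 0.109% lower.

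**Figure D2:**
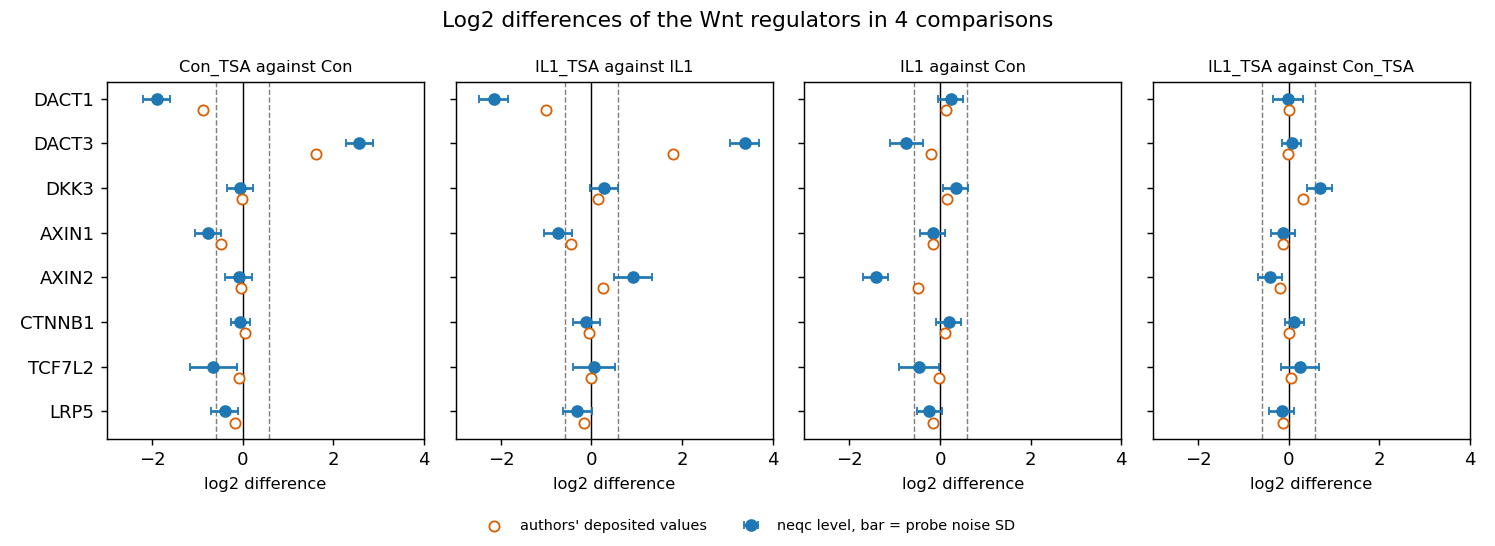
Log2 difference (x axis) of each of the 8 Wnt regulators (y axis) in the 4 comparisons, 1 panel each. Filled points are the normalised levels with a bar of 1 noise SD to each side, open points are the authors' deposited values, and dashed lines mark 1.5-fold. DACT3 and DACT1 lie outside the dashed lines in opposite directions in both comparisons with TSA on both scales, and DKK3, AXIN1, AXIN2 and TCF7L2 do so in 1 or 2 comparisons on the normalised levels alone.

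The difference with TSA can be set between cultures with and without IL-1α, as the difference in IL1_TSA against IL1 minus that in Con_TSA against Con. It was 0.81 for DACT3 (noise SD 0.38), 1.01 for AXIN2 (noise SD 0.38) and 0.71 for TCF7L2 (noise SD 0.59). For DACT1, DKK3, AXIN1, CTNNB1 and LRP5 it lay between -0.26 and 0.34. DACT3 and AXIN2 were both dim in IL1, and their values were 0.19 and 0.29 with the authors' deposited values. None of these was tested, since there is 1 array for each condition.

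Other genes of the Wnt pathway were taken from lists by role, and the noise SD of those named below was between 0.21 and 0.51. Of 126 such genes named on the array, the 10 regulators included, 82 had a level. In Con_TSA against Con, 13 were higher (15.9%) and 27 lower (32.9%), against 16.3% and 16.4% of all genes, with a median of -0.19 against -0.01. In IL1_TSA against IL1, 16 were higher (19.5%) and 24 lower (29.3%), against 21.2% and 18.2%, with a median of -0.06 against 0.02. The authors' deposited values gave 4 higher (4.88%) and 12 lower (14.6%) without IL-1α, against 5.02% and 3.97% of all genes. With IL-1α they gave 5 higher (6.10%) and 13 lower (15.9%), against 6.36% and 5.79%. With median scaling of the arrays the counts were 9 higher and 29 lower without IL-1α, and 24 higher and 22 lower with it. In IL1_TSA against IL1 that scaling put the median of all genes at 0.22 and that of the pathway genes at 0.16. Shares over all genes were not counted under median scaling, so whether the excess of lower genes held there is not known. In IL1 against Con, 11 were higher (13.4%) and 13 lower (15.9%), against 8.54% and 7.93% of all genes. In IL1_TSA against Con_TSA, 8 were higher (9.76%) and 3 lower (3.66%), against 4.2% and 2.75%. Median scaling gave 24 higher and 1 lower there, but put the median of all genes at 0.35 and that of the pathway genes at 0.41.

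**Figure D3:**
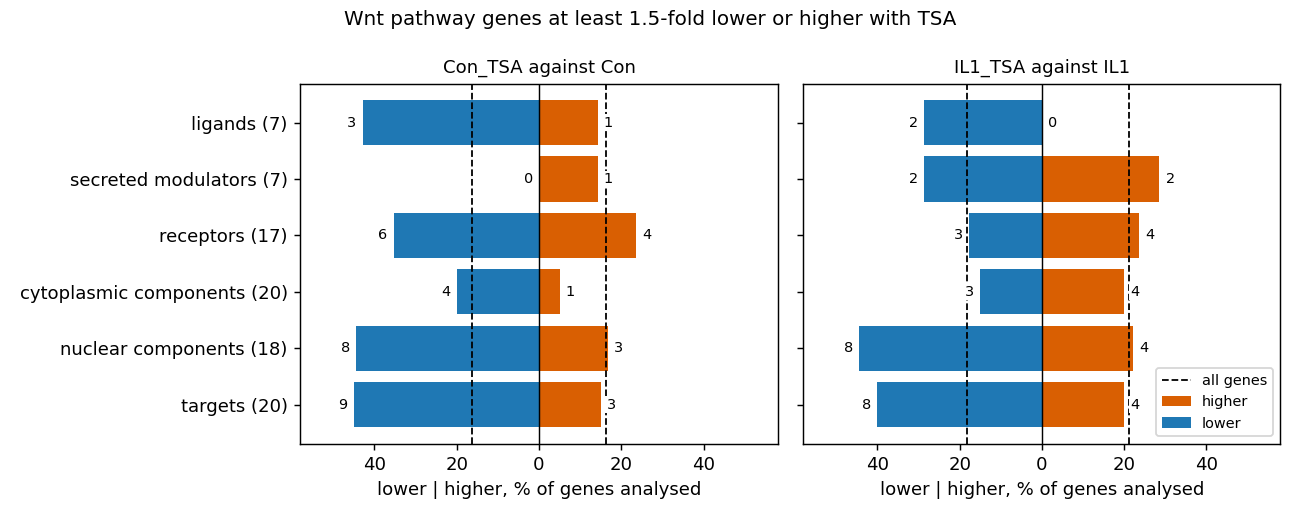
Share of the genes of each Wnt pathway list (y axis, number with a level in brackets) that were lower (to the left) or higher (to the right) by at least 1.5-fold with TSA, in % of the genes with a level, without IL-1α (left panel) and with it (right panel). Numbers beside the bars are genes and dashed lines are the shares over all genes. Nuclear components and targets have 8 or 9 genes lower against 3 or 4 higher in each panel.

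Among the ligands and the machinery that secretes them, 3 of 7 were lower and 1 higher in Con_TSA than in Con, and 2 lower and 0 higher in IL1_TSA than in IL1. The shares over all genes were 16.4% lower and 16.3% higher, and 18.2% and 21.2%. The higher ligand, WNT2B, named after its value was seen, was called in 2 of 8 alternative settings. WNT5B, a ligand known for signalling apart from β-catenin, had levels of 10.73 in Con, 9.78 in IL1, 8.77 in Con_TSA and 8.42 in IL1_TSA. It was 3.91-fold lower with TSA without IL-1α and 2.57-fold lower with it, and was called on both scales. WNT5A, its close relative, was 2.41-fold and 1.72-fold lower, and WNT7A, a ligand with a part in limb patterning, was 1.83-fold lower with TSA alone. WNT7A was within 1.5-fold in IL1_TSA against IL1, where its difference was 0.53, and was 2.29-fold lower in IL1 than in Con. The calls of WNT5A and WNT7A were not made with the authors' deposited values. WLS, which carries Wnt proteins to the cell surface, was within 1.5-fold in both comparisons with TSA. It had 5 probes and was 1.52-fold lower in IL1 than in Con, a call not made on the authors' scale (1.40-fold).

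Of the secreted modulators, the R-spondin RSPO3 (an enhancer of Wnt signalling) had the widest difference with IL-1α among those named. Its levels were 7.56 in Con, 9.50 in IL1, 7.85 in Con_TSA and 7.58 in IL1_TSA, so that IL1 stood above the other 3 arrays. RSPO3 was 3.85-fold higher in IL1 than in Con and 3.80-fold lower in IL1_TSA than in IL1, and the authors' deposited values, 0.84 and -0.81 on the log2 scale, gave the same calls. Its pattern over the arrays was opposite to that of AXIN2, with IL1 apart from the rest. SFRP1, which binds and sequesters Wnt proteins, was 1.51-fold and 2.16-fold higher with TSA, the former not called on the authors' scale. SFRP5, of the same family, differed by -0.19 and -0.01.

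Of the 17 receptor genes with a level, 4 were higher (23.5%) and 6 lower (35.3%) in Con_TSA against Con, and 4 higher (23.5%) and 3 lower (17.6%) in IL1_TSA against IL1. The latter shares were near those over all genes, 21.2% and 18.2%, and the former stood against 16.3% and 16.4%. FZD9 was not detected without TSA, with levels of 5.84 in Con and 5.59 in IL1, and was at 9.49 in Con_TSA and 9.43 in IL1_TSA. It was at least 7.28-fold higher with TSA without IL-1α and at least 6.49-fold higher with it. FZD4 was 2.24-fold and 3.69-fold higher, with levels of 9.56, 8.78, 10.73 and 10.66 in Con, IL1, Con_TSA and IL1_TSA. FZD9, FZD4 and DACT3 were each at nearly equal levels on the arrays with TSA, as were most genes. In IL1_TSA against Con_TSA, 4.2% of all genes were called higher and 2.75% lower. FZD8 was 2.16-fold and 3.14-fold lower and ROR2, a receptor for WNT5A, 1.86-fold and 3.15-fold lower. Both differences with TSA were called with the authors' deposited values only where IL-1α was present. FZD8 was also 1.66-fold and ROR2 2.05-fold higher in IL1 than in Con, calls not made on the authors' scale. That comparison shares the IL1 array with IL1_TSA against IL1.

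The cytoplasmic components, which include the DACT and AXIN genes, numbered 20 with a level. In Con_TSA against Con, 1 was higher (5%) and 4 lower (20%), against 16.3% and 16.4% of all genes. In IL1_TSA against IL1, 4 were higher (20%) and 3 lower (15%), near the 21.2% and 18.2% of all genes. CSNK1D, a casein kinase 1 gene, had levels of 10.51, 10.56, 8.76 and 8.68 in Con, IL1, Con_TSA and IL1_TSA on 2 probes. It was 3.35-fold and 3.69-fold lower with TSA, and was called on both scales. FRAT2, which binds the kinase GSK3, was within 1.5-fold without IL-1α (0.34) and 1.58-fold above IL1 in IL1_TSA, a call not made on the authors' scale (1.29-fold). AMER1, a partner of the destruction complex, and PPP2R5E, a regulatory subunit of protein phosphatase 2A, were within 1.5-fold in all 4 comparisons.

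Of 18 nuclear components, 8 were lower in each comparison with TSA, while 3 were higher without IL-1α and 4 with it. That is 44.4% lower in each, against 16.4% and 18.2% of all genes, and 16.7% and 22.2% higher, against 16.3% and 21.2%. With the authors' deposited values 3 were lower without IL-1α (16.7%, against 3.97% of all genes) but 1 with it (5.56%, against 5.79%). CREBBP, a histone acetyltransferase and co-activator, was 3.07-fold and 2.98-fold lower and was called on both scales. BCL9L, which links β-catenin to the transcription machinery, was 2.76-fold and 2.66-fold lower, and the co-repressor CTBP2, not detected with TSA, lower by at least 2.60-fold and 2.48-fold. NLK, a kinase that acts on TCF/LEF factors, was 2.70-fold and 3.23-fold higher. BCL9L, CTBP2 and NLK were not called on the authors' scale. The 20 target genes had 9 lower and 3 higher without IL-1α, and 8 lower and 4 higher with it, where AXIN2 was among the higher. Thus 45% and 40% of the targets were lower, where 16.4% and 18.2% of all genes were lower. Another 15% and 20% of the targets were higher, where 16.3% and 21.2% of all genes were so called. With the authors' deposited values 5 targets were lower (25%) and 0 higher without IL-1α, against 3.97% and 5.02% of all genes. With IL-1α, 6 were lower (30%) and 1 higher (5%), against 5.79% and 6.36%. MYC, a growth regulator, was 3.09-fold and 2.83-fold lower, with levels of 9.79, 10.20, 8.16 and 8.70 in Con, IL1, Con_TSA and IL1_TSA. LEF1, both a TCF/LEF factor and a target, was 2.81-fold and 2.52-fold lower. On the authors' scale MYC was called in both comparisons and LEF1 without IL-1α only. FOSL1, a subunit of AP-1, was 4.31-fold and 4.28-fold lower with TSA and 1.76-fold higher in IL1 than in Con. CCN4, a matrix-associated protein also called WISP1, was 3.06-fold and 4.58-fold lower with TSA and 2.62-fold higher in IL1 than in Con. FOSL1 and CCN4 were called in all 4 comparisons, and both are also genes that other pathways control. On the authors' scale FOSL1 kept its calls with TSA, and CCN4 those in IL1_TSA against IL1 and IL1 against Con. AXIN2, at -0.10 with TSA alone, was within 1.5-fold where these 4 targets were lower.

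**Figure D4:**
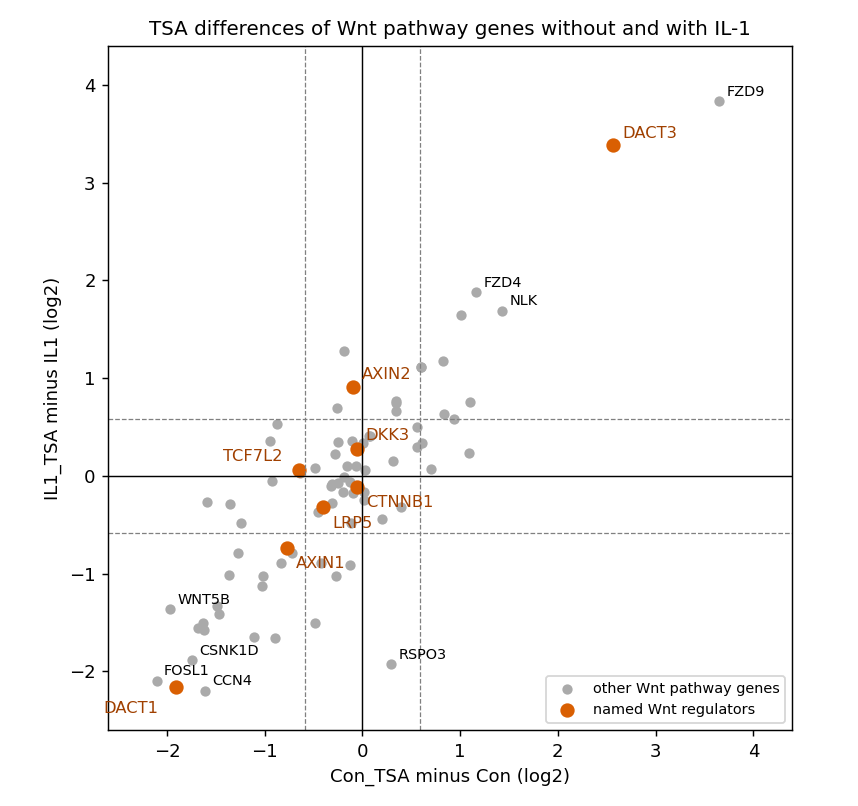
Log2 difference of the 82 Wnt pathway genes with a level in Con_TSA against Con (x axis) and in IL1_TSA against IL1 (y axis), 1 point per gene, with the 8 Wnt regulators in colour and dashed lines at 1.5-fold. Genes not detected without TSA, such as FZD9, are drawn at their measured level. DACT3 lies at the upper right at 2.57 and 3.38, DACT1 at the lower left at -1.91 and -2.16 beside FOSL1 and CCN4, and RSPO3 is lower only where IL-1α was present.

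The genes whose levels over the 4 arrays were most like those of DACT3 were sought among 9035 genes detected on both arrays with TSA, by the root mean square difference of the levels after each gene's mean was removed. The median of that distance was 1.4996. The 6 nearest were CGN (0.05), ACBD7 (0.09), TUFT1 (0.16), NAALAD2 (0.16), DNAI7 (0.16) and C2orf15 (0.21). CGN, which encodes the tight junction protein cingulin, had levels of 7.33 in Con, 6.50 in IL1, 9.89 in Con_TSA and 9.87 in IL1_TSA, and TUFT1, known from tooth enamel, 9.55, 8.97, 11.87 and 12.02. CGN was 5.88-fold higher with TSA without IL-1α and at least 8.82-fold higher with it, and TUFT1 was 4.997-fold and 8.29-fold higher. ACBD7, NAALAD2, DNAI7 and C2orf15 were not detected without TSA, and CGN was not detected in IL1, so the likeness of these 5 genes to DACT3 rests in part on levels near background. With the authors' deposited values the differences with TSA were less alike, against 1.61 and 1.80 for DACT3. They were 1.23 and 1.25 for CGN, 0.94 and 0.84 for ACBD7, and 1.86 and 2.37 for TUFT1. NAALAD2 had 0.68 and 0.55, DNAI7 0.46 and 0.44, and C2orf15 0.74 and 0.82. On that scale DNAI7 was called in neither comparison and NAALAD2 only without IL-1α. None of the 6 is in the Wnt lists, and with 4 arrays the likeness is a description only. DKK1, which had no level, was given no neighbours.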

How the data were processed

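Total RNA of 4 SW1353 cultures, 1 array for each condition, was measured on Illumina arrays. The authors deposited raw probe intensity, not normalised between arrays, with a detection p-value for each. A further table holds log2-scale values that, per the labels and the study's methods, the authors made with lumi (variance stabilisation, robust spline). Its version was not stated in the sources used here. Both tables carry 1 column per array, 0 columns were left unmapped, and the labelled IL-1 time was used where figure legends give a longer one.

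Intensities were background corrected, quantile normalised and put on the log2 scale with neqc of limma 3.58.1 in R 4.3.3 (offset 16, negative controls inferred from the deposited detection p-values). Of the probes, 15088 were detected (p-value under 0.01) on at least 1 array, and 12953 of these had 1 gene in the platform annotation, giving 10128 genes. Levels of a gene average its detected probes. The annotation left 21206 probes unnamed and gave several genes for 13. Noise SD comes from the difference between 2 probes of 1 gene, divided by the square root of 2, within bins of level. For a lower bound on a fold, the brighter level was set against the higher of the gene's own dimmer level and the lowest level at which that array detected any probe. The counting step was tested on simulated data.

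The genes and lists were chosen with earlier results of these data known. Named genes followed a rule: all 10 regulators; of each Wnt list up to 4 others with the largest mean size of the differences with TSA, detected on all 4 arrays or called in both comparisons, and genes called in all 4; the 6 genes nearest to DACT3; and IL6 and CXCL8. Alternatives were the authors' values, no background correction, median scaling, an offset of 50, detection p-values under 0.05 or on all 4 arrays, the brightest probe and a 2-fold threshold.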

Additional observations from a re-analysis of the deposited data

How the results depend on the processing

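No called difference of the 8 Wnt regulators changed direction under the alternatives run. With the authors' deposited values 1 of the 8 Wnt regulators was higher and 1 lower in Con_TSA against Con, and likewise in IL1_TSA against IL1. In IL1 against Con and in IL1_TSA against Con_TSA 0 were higher and 0 lower. The Wnt pathway genes then numbered 4 higher and 12 lower, 5 and 13, 4 and 4, and 1 and 0 in these comparisons. Of all genes, 5.02% were then higher and 3.97% lower, 6.36% and 5.79%, 3.35% and 0.849%, and 0.879% and 0.109%. On that scale the difference between the TSA effects with and without IL-1α was 0.19 for DACT3, 0.29 for AXIN2 and 0.076 for TCF7L2. At 2-fold the regulators gave 1 higher and 1 lower, then 1 and 1, 0 and 1, and 0 and 0. The pathway genes gave 6 higher and 18 lower, 9 and 18, 5 and 6, and 2 and 1. Shares over all genes were counted at 1.5-fold only, for the normalised levels and the authors' deposited values. Without background correction DACT3 in IL1 against Con (-0.53) and DKK3 in IL1_TSA against Con_TSA (0.57) were not called, which left 1 regulator lower and 0 higher in these comparisons. TCF7L2 (-0.32) was not called in Con_TSA against Con either, nor with an offset of 50 (-0.47), which left 2 lower each time. Without background correction the pathway genes gave 7 higher and 26 lower, 10 and 24, 7 and 10, and 2 and 0 in the 4 comparisons. Median scaling moved the median of all genes to -0.19, 0.22, -0.10 and 0.35, left 1 regulator lower in IL1_TSA against IL1 (AXIN1 at -0.51 was not called) and gave 24 pathway genes higher and 22 lower in IL1_TSA against IL1, and 24 higher and 1 lower in IL1_TSA against Con_TSA. The difference between the TSA effects was then 0.13 for DACT1, 1.25 for DACT3, 0.78 for DKK3, 0.47 for AXIN1, 1.49 for AXIN2, 0.34 for CTNNB1 and 0.50 for LRP5. In IL1_TSA against Con_TSA the pathway genes were 5 higher and 1 lower with an offset of 50, and 4 higher and 1 lower with detection required on all 4 arrays, a setting in which TCF7L2 had no value. The cause of these shifts was not tested. Of the values that answer a comparison 135 stayed within the spread allowed and 48 moved, and of the others 461 and 143. No paired analysis was possible because each condition was 1 array, and for the same reason no replicate could be left out. Single arrays leave variation between cultures unmeasured, 4 of the 8 genes (DKK3, AXIN1, AXIN2 and TCF7L2) lose all calls on the authors' scale, and TCF7L2, DKK1 and LRP6 were at or near background.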
